A study of Homo sapiens with 24 samples.

Results

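RCC4+VHL cells, a human renal carcinoma line into which VHL was returned by stable transfection, were kept for 6 h in normoxia (21% oxygen) or hypoxia (0.5% oxygen), and the AHR ligand ITE (100 nM) was present in both arms. The comparison takes 12 of the 24 libraries of the series by their labels, 6 of hypoxia + ITE and 6 of normoxia + ITE, and treats same-numbered libraries as pairs. The other 12 libraries had DMSO (0.1%) in place of ITE at the same oxygen levels, and their values are set beside those with ITE. The line is 1 transfected clone kept in G418, and all cells were grown before treatment in phenol red-free medium with charcoal-treated serum, which lowers basal AHR activity. PolyA+ RNA was sequenced from 6 independent replicates of each group.

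HIF is a dimer of an oxygen-labile α subunit (HIF-1α from HIF1A or HIF-2α from EPAS1) and the stable subunit HIF-1β, encoded by ARNT. In oxygen, prolyl hydroxylases mark the α subunits for capture by VHL and degradation, and in hypoxia the dimer binds DNA and raises transcription of genes of glucose metabolism, angiogenesis and mitochondrial turnover. AHR is a ligand-activated factor that uses the same ARNT subunit, so that with ITE present both pathways draw on 1 partner.

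Levels are given in CPM, counts brought to 1 scale across libraries by the TMM method, and responses as log2 fold changes of hypoxia + ITE over normoxia + ITE. Total counts ranged from 5099464 to 48357647 (median 7471073) in normoxia + ITE and from 1357702 to 87404330 (median 18149231) in hypoxia + ITE. A count of 3 corresponded to 0.062 to 0.588 CPM in the former and to 0.0343 to 2.21 CPM in the latter. All 11 renal epithelial markers were detected well enough to be tested, 0 of 7 endothelial markers, 3 of 9 fibroblast markers and 2 of 7 leukocyte markers (CD68 and ITGAM) were, and PTPRC, which encodes the pan-leukocyte antigen CD45, had no count in any of the 12 libraries. The median log2 fold change of the renal epithelial markers was 0.34, and 0.07 without pair 6. Hypoxia + ITE replicate 6 stood apart. Its deviation from the median of its group had a median absolute size of 0.681 on the log2 scale (0.0816 to 0.264 in the other 11). GC content and gene length accounted for 41.8% of the variance of its deviation from the mean of all 12 libraries. That share was 1.30 to 24.9% in the other 11, the highest in hypoxia + ITE replicate 3. Counts of genes called are therefore given without pair 6 as well wherever they differ.

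By edgeR's quasi-likelihood test with the replicate number as a block, 54 of 11774 genes passed an adjusted p-value of 0.05 with the higher level in hypoxia + ITE (0.459%), and 0 passed with the lower level (0%). Before adjustment 701 genes with the higher and 570 with the lower level had p under 0.05, and DESeq2 called 153 higher and 49 lower. Without pair 6, 125 genes were higher (1.06%) and 21 lower (0.178%). All 54 were among the 125. Leaving out pair 2, 3 or 4 in place of pair 6 gave 30, 34 and 31 higher genes. Without the block there were 80 higher and 4 lower, and offsets for GC content and gene length gave 102 higher and 18 lower.

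The 54 genes rose by 0.83 to 5.06 on the log2 scale, with a median of 1.29 (median of all genes tested -0.01). In 53 of them hypoxia was the higher library in 6 of 6 pairs, and in 52 the lowest hypoxia library lay above the highest normoxia library. Such separation was seen in 140 genes in all (1.19%), and 109 genes lay wholly below (0.926%). The median log2 ratio over the 54 was between 1.04 and 1.45 in every one of the 6 pairs, and 1.42 in pair 6. The 54 were called on these same pairs, so their agreement and separation follow in large part from the choice. Summed over the 54 genes, normoxia + ITE libraries held 4545 to 5221 CPM and hypoxia + ITE libraries 9821 to 11740 CPM. LDHA, the lactate dehydrogenase subunit that favours lactate, alone made up 34.7% of the rise of that sum, and PGK1, the phosphoglycerate kinase of glycolysis, a further 8.12%.

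**Figure D1:**
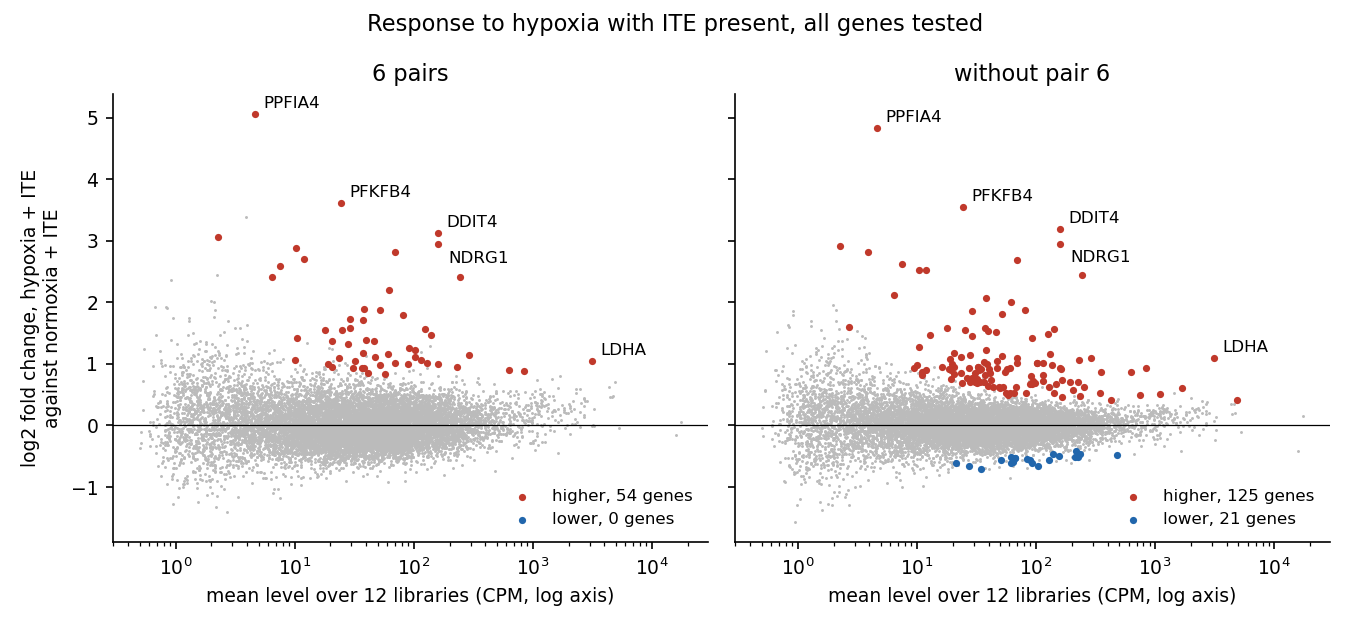
Log2 fold change of hypoxia + ITE over normoxia + ITE against the mean level over the 12 libraries (CPM, log axis) for the 11774 genes tested, with 6 pairs on the left and without pair 6 on the right; red marks genes called higher and blue genes called lower. With 6 pairs 54 genes are red and 0 blue; without pair 6 there are 125 and 21, and the blue genes lie close to the axis.

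PPFIA4, which encodes the scaffold protein liprin-alpha-4, had the largest response of the genes called. It was measured at 0.0956 to 0.573 CPM (median 0.260) in normoxia + ITE and at 1.49 to 12.3 CPM (median 10.6) in hypoxia + ITE. The groups did not overlap, although the lowest hypoxia library, replicate 1, lay well below the other 5. Its level was under the 2.21 CPM that 3 counts give in that library. The log2 fold change was 5.06 (SE 0.40, edgeR adjusted p = 5.94e-05), with pair values from 2.22 to 6.01. The normoxia levels of PPFIA4 lay within the range that 3 counts give, so this fold is the least precise of the 5 largest.

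PFKFB4, whose product sets the level of fructose 2,6-bisphosphate and with it the rate of glycolysis, lay at 1.91 to 4.96 CPM (median 4.04) in normoxia and 26.0 to 56.7 CPM (median 50.2) in hypoxia. Every hypoxia library was above every normoxia library, and replicate 6 was the highest. PFKFB4 rose by 3.61 on the log2 scale (SE 0.26, edgeR adjusted p = 4.41e-05). DDIT4, an inhibitor of mTORC1 signalling, went from 27.1 to 42.1 CPM (median 29.7) to between 201 and 362 CPM (median 305). Its groups were also separate, with replicates 1 and 6 the lowest of hypoxia, and it rose by 3.12 (SE 0.21, edgeR adjusted p = 3.59e-05).

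RIMKLA, which encodes a ligase that makes N-acetylaspartylglutamate, was low in normoxia at 0.191 to 0.765 CPM (median 0.583) and lay at 3.38 to 4.51 CPM (median 4.14) in hypoxia. It rose by 3.06 (SE 0.36, edgeR adjusted p = 0.00223). NDRG1, a stress-responsive gene widely used as a marker of HIF activity, lay at 31.7 to 41.0 CPM (median 36.8) in normoxia and 206 to 335 CPM (median 298) in hypoxia. NDRG1 had the narrowest pair values of these 5 genes, from 2.44 to 3.23, and rose by 2.94 (SE 0.15, edgeR adjusted p = 3.4e-06). MIR210HG, the host transcript of miR-210, a microRNA of the hypoxic response, lay at 0.964 to 3.63 CPM (median 2.66) in normoxia and 9.65 to 33.5 CPM (median 18.1) in hypoxia, and rose by 2.88 (SE 0.38, edgeR adjusted p = 0.00319). The libraries were polyA+ and the counts are per gene, so the mature miR-210 was not measured.

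The 250 bases before the RefSeq start are shown for the 6 genes above other than NDRG1, so that each response can be read beside the promoter. RefSeq gives these sequences on GRCh38.p14, and the positions are those of an exact match in GRCh37, the build of the counts. Capitals mark ACGTG or its reverse complement CACGT, the variant of the hypoxia response element that HIF favoured in the study. The study also gives the motif of HIF more widely as RCGTG (R is A or G), which takes in GCGTG.
PPFIA4 (chr1:202995369-202995618, + strand): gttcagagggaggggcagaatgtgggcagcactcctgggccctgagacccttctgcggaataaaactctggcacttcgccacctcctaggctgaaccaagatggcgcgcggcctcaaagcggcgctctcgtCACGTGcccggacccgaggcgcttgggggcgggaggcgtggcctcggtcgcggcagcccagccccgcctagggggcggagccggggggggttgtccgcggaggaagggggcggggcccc
PFKFB4 (chr3:48594237-48594486, - strand): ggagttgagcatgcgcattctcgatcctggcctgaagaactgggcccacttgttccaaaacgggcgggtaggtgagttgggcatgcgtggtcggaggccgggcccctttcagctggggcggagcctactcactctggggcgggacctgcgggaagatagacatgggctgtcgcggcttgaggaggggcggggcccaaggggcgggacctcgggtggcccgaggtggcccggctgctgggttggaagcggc
DDIT4 (chr10:74033432-74033681, + strand): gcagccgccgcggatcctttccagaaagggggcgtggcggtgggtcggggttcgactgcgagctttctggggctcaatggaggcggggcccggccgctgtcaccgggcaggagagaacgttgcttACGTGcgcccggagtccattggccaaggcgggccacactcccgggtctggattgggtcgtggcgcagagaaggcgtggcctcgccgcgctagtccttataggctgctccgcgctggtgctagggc
RIMKLA (chr1:42846213-42846462, + strand): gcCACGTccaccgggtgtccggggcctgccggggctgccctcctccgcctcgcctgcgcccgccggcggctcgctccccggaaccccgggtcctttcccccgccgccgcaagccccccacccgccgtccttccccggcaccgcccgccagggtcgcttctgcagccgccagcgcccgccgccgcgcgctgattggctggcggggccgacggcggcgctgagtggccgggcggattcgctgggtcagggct
MIR210HG (chr11:568458-568707, - strand): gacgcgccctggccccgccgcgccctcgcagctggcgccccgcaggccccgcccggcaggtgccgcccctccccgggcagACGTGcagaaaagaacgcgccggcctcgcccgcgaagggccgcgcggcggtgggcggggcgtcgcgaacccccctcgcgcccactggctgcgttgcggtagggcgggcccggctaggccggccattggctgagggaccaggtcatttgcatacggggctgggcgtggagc

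ACGTG was present once in 4 of these 5 windows, in that of PPFIA4 as CACGTG, which reads the same on both strands. ACGTG was not in the window of PFKFB4. That window lies inside the annotated span of the gene (chromosome 3, 48555117 to 48599448), and sequence before the span was not searched. GCGTG or its reverse complement CACGC, the core of the AHR response element, was present in the windows of PPFIA4, PFKFB4, DDIT4 and MIR210HG and not in that of RIMKLA. Of the 9493 genes tested that had a promoter in the table, 24% held ACGTG and 46.5% GCGTG, on either strand. Only 40 of the 54 genes called had one (74.1%, under 80%), so a comparison of shares over the 54 is void and is not given. A match describes letters and not a bound site.

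**Figure D2:**
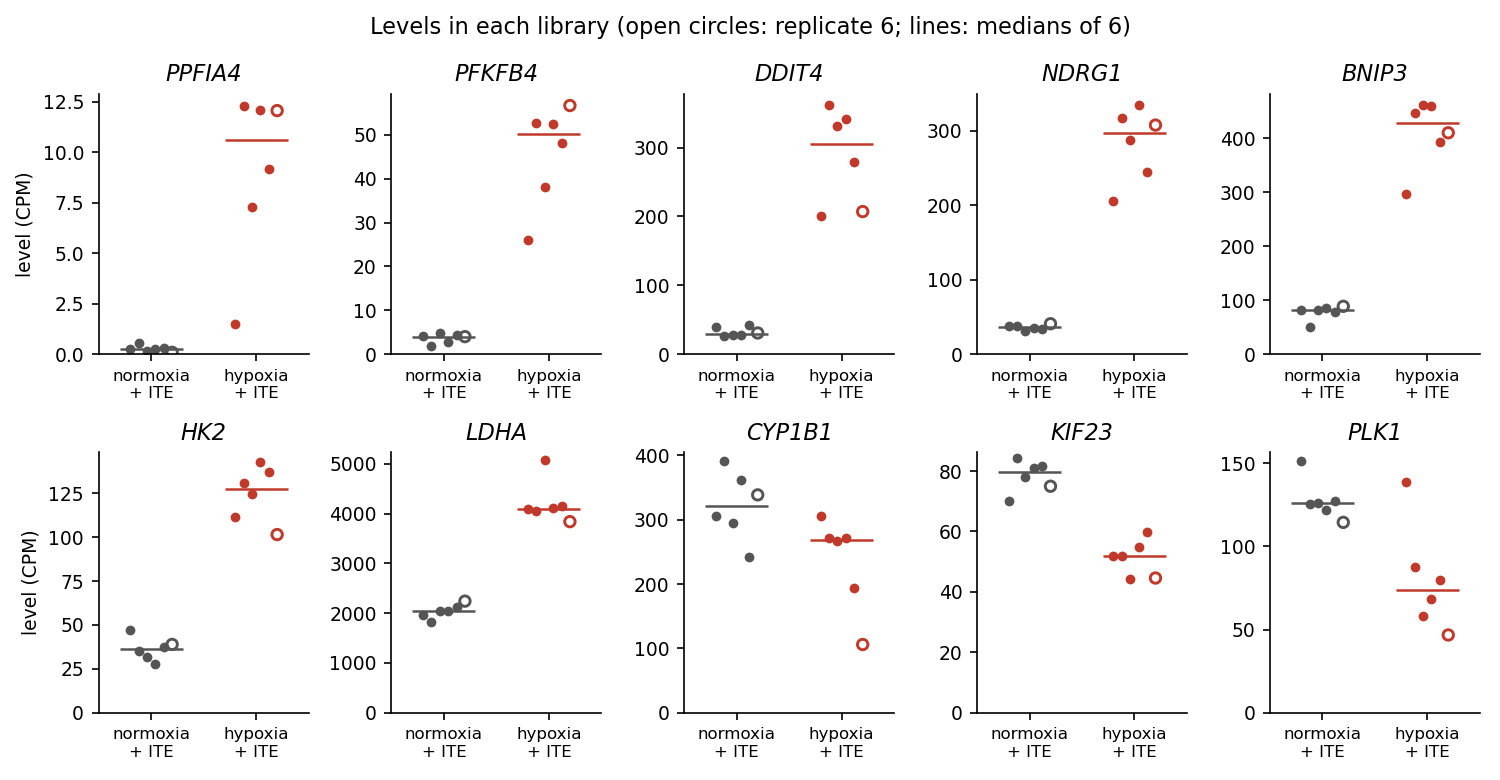
Level (CPM, linear axis from 0) of 10 genes in each library of normoxia + ITE (grey) and hypoxia + ITE (red); lines are medians of 6 and open circles are replicate 6. PPFIA4, PFKFB4, DDIT4, NDRG1, BNIP3, HK2 and LDHA do not overlap between the groups, KIF23 lies lower in hypoxia without overlap, and CYP1B1 and PLK1 overlap.

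Glycolysis held more called genes than any other list. Of 25 tested genes of glucose uptake, glycolysis and lactate export, 10 rose and 0 fell, the median log2 fold change was 0.80, and 18 had groups that did not overlap. Over all genes tested 0.459% were called higher and 1.19% had the hypoxia group wholly above. These shares stand beside the lists below as well. Without pair 6, 16 rose, against 1.06% of all genes tested, and the median was 0.61. The summed level of the list was 15660 to 16860 CPM in normoxia and 22190 to 46220 CPM in hypoxia. The pair medians were 0.48 to 0.75 in pairs 1 to 5 and 1.37 in pair 6, and pair 6 holds the library whose deviation followed GC content and length most; the part of that in the median was not tested.

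HK2, the inducible hexokinase, lay at 27.9 to 47.0 CPM (median 36.3) in normoxia and 102 to 143 CPM (median 128) in hypoxia, and rose by 1.79 (SE 0.17, edgeR adjusted p = 0.000314). ENO2, an enolase best known from neurons, rose by 1.88 (SE 0.15, edgeR adjusted p = 5.94e-05), from a median of 22.1 to 81.5 CPM. SLC2A1, the glucose transporter GLUT1, lay at 154 to 196 CPM in normoxia and 303 to 454 CPM in hypoxia and rose by 1.14 (SE 0.14, edgeR adjusted p = 0.00246). LDHA went from 1826 to 2243 CPM (median 2046) to 3839 to 5076 CPM (median 4099), a log2 fold change of 1.05 (SE 0.12, edgeR adjusted p = 0.00223). Of all 54 genes LDHA had the highest level. The other members that rose, named after their values were seen, were HK1 (1.12), PFKFB3 (0.95), ALDOC (1.37), PGK1 (0.89) and PDK1 (1.37), the kinase that restrains pyruvate dehydrogenase, besides PFKFB4. GPI, ALDOA, TPI1, GAPDH, PGAM1 and SLC16A3, which exports lactate, also named after their values were seen, did not pass with 6 pairs and rose without pair 6, where their log2 fold changes were 0.42 to 0.70.

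Glycogen genes rose in part. Of 13 tested, 3 rose and 0 fell (median 0.21), and without pair 6 the count was also 3. PPP1R3C, a subunit that brings protein phosphatase 1 to glycogen, lay at 0.410 to 4.19 CPM in normoxia and 5.54 to 17.2 CPM in hypoxia, and rose by 2.59 (SE 0.37, edgeR adjusted p = 0.00684). STBD1, which binds glycogen, rose by 0.94 (adjusted p = 0.0105) and GBE1, the branching enzyme, by 0.83 (adjusted p = 0.0205), the smallest response among the 54. PGM1, which links glycogen to glycolysis, had separate groups and a log2 fold change of 0.44 but did not pass (adjusted p = 0.294).

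Secreted factors of the hypoxic response rose in 3 of 14 tested, with 4 without pair 6. ADM, the vasodilator peptide adrenomedullin, lay at 9.56 to 23.1 CPM (median 15.9) in normoxia and 62.4 to 239 CPM (median 112) in hypoxia, with replicate 6 more than any other library, and rose by 2.81 (SE 0.21, edgeR adjusted p = 5.62e-05). Without pair 6 the log2 fold change of ADM was 2.68. STC2, a secreted stanniocalcin, rose by 0.91 from a median of 424 to 805 CPM (adjusted p = 0.00358), and VEGFA, the main angiogenic factor, by 0.85 from 29.1 to 53.7 CPM (adjusted p = 0.0165). ANGPTL4, an inhibitor of lipoprotein lipase, was at 0 to 1.60 CPM in normoxia and 0.742 to 18.8 CPM in hypoxia. It did not pass with 6 pairs (log2 fold change 3.39, SE 0.75, adjusted p = 0.110) and passed without pair 6 (2.82, adjusted p = 0.0354), and such a fold depends on the prior count.

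Among genes of mitophagy and cell death, 3 of 14 rose, with and without pair 6. BNIP3, a receptor for mitophagy on the outer mitochondrial membrane, lay at 50.5 to 88.7 CPM (median 81.8) in normoxia and 296 to 462 CPM (median 428) in hypoxia, and rose by 2.40 (SE 0.17, edgeR adjusted p = 3.91e-05). Its relative BNIP3L rose by 1.47 (adjusted p = 0.000539) and FAM162A, a mitochondrial protein of hypoxic cell death, by 1.72 (adjusted p = 0.00307). In the list of mTORC1 and growth restraint, DDIT4 and NDRG1 rose among 13 tested, and BTG1, an antiproliferative gene, did not pass with 6 pairs and rose without pair 6 (0.82, adjusted p = 0.00275).

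Of 8 tested genes of the HIF subunits and oxygen sensors 0 passed with 6 pairs by edgeR (1 in each direction before adjustment), and DESeq2 called 1 higher. EGLN1, the prolyl hydroxylase PHD2, lay at 118 to 141 CPM (median 130) in normoxia and 129 to 233 CPM (median 217) in hypoxia, with replicate 6 the lowest of hypoxia. Its log2 fold change was 0.62 (adjusted p = 0.155), and 0.74 without pair 6 (adjusted p = 0.00128). HIF1A was lower in hypoxia in 6 of 6 pairs by a fold that did not pass (-0.38, adjusted p = 0.455, and -0.24 without pair 6, adjusted p = 0.346). VHL lay at 166 to 203 CPM (median 184) in normoxia and 164 to 700 CPM (median 216) in hypoxia, where replicate 6 was the highest. The transfected and the native VHL cannot be told apart in these counts.

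Of 17 transcription factors of the hypoxic response, 2 rose with 6 pairs and 5 without pair 6. BHLHE40, a repressor that also acts on the circadian clock, rose by 1.25 from a median of 54.8 to 138 CPM (adjusted p = 0.0105), and ZNF395 by 1.23 from 57.7 to 122 CPM (adjusted p = 0.0125), with replicate 6 at 287 CPM. MXI1, a partner of MAX that represses transcription, had a log2 fold change of 0.75 in 6 of 6 pairs (adjusted p = 0.261) and passed without pair 6 (0.90, adjusted p = 0.0226). KDM4B and KDM3A, histone demethylases that need oxygen, were the 2 of 18 JmjC and TET dioxygenases that rose, by 1.11 (adjusted p = 0.00287) and 0.98 (adjusted p = 0.0365). P4HA1, a collagen prolyl hydroxylase, rose by 1.02 (adjusted p = 0.0125), the only 1 of 14 genes of collagen modification with 6 pairs; PLOD2 and LOX passed without pair 6 (0.87 and 0.78), and both had replicate 6 as the lowest hypoxia library.

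Several of the largest responses were outside these groups. RAB20, a small GTPase of vesicle traffic, rose by 2.70 (SE 0.33, edgeR adjusted p = 0.00225) from a median of 3.13 to 21.8 CPM. SPAG4, a protein of the nuclear envelope, rose by 2.42, from 1.85 to 8.93 CPM, and ANKZF1, which releases stalled chains from ribosomes, by 2.19, from 21.2 to 88.7 CPM. Both had their highest level in replicate 6 (26.0 and 194 CPM), and without pair 6 the log2 fold change of SPAG4 was 2.12. ARRDC3, an alpha-arrestin, rose by 1.89 from 15.5 to 58.5 CPM, and replicate 6 was its lowest hypoxia library at 28.2 CPM. PLIN2 (1.56), which coats lipid droplets, HILPDA (1.55), an inhibitor of lipolysis, and F3 (1.18), tissue factor, are named after their values were seen. HILPDA was the 1 gene of the 54 that was higher in 5 of 6 pairs.

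Genes of mitosis lay lower in hypoxia. Of 23 tested, 22 had a log2 fold change below 0, with a median of -0.42 (median of all genes tested -0.01), and in 6 of the 23 every hypoxia library lay below every normoxia library. Such separation was seen in 0.926% of all genes tested. With 6 pairs 0 of the 23 passed by edgeR, although 17 of those below 0 had an unadjusted p under 0.05, and DESeq2 called 4 lower. Of all 11774 genes, 570 were lower at that unadjusted p by edgeR. Without pair 6, 4 fell, against 0.178% of all genes tested, all 23 were below 0 and the median was -0.37. The pair medians were -0.09, -0.33, -0.48, -0.50, -0.35 and -0.81 in pairs 1 to 6, so each pair had the same sign, and the summed level was 3081 to 3378 CPM in normoxia and 2320 to 2995 CPM in hypoxia. In bulk RNA, fewer cells in mitosis and less RNA per cell cannot be told apart. Of 33 genes of DNA replication 20 were above 0, with a median of 0.04, and CDT1, which loads the replicative helicase, rose without pair 6 (0.68, adjusted p = 0.00282) with separate groups.

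KIF23, a kinesin of the central spindle, lay at 70.0 to 84.3 CPM (median 79.6) in normoxia and 44.2 to 59.9 CPM (median 51.9) in hypoxia. Every hypoxia library was below every normoxia library, and the pair values ran from -0.82 to -0.43. Its log2 fold change was -0.62 (SE 0.13, edgeR adjusted p = 0.0984), -0.60 without pair 6 (adjusted p = 0.0106) and it also passed without the block (adjusted p = 0.0189). PLK1, the kinase that drives mitotic entry, lay at 115 to 152 CPM in normoxia and 46.8 to 139 CPM in hypoxia, with overlapping groups, and fell by 0.67 without pair 6 (adjusted p = 0.0260). TOP2A, which untangles chromosomes, had separate groups (237 to 309 and 152 to 220 CPM) and fell by 0.51 without pair 6 (adjusted p = 0.0394).

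The 21 genes that fell without pair 6 are described after their values were seen. Their log2 fold changes were small, from -0.42 to -0.71 with a median of -0.54, and each of the 21 was below 0 in each of pairs 1 to 5. They were called from those pairs, so the shared sign there follows in large part from the choice. In pair 6, which took no part in the choice, 19 of the 21 were below 0, as were 6126 of all 11774 genes tested. Pair 6 holds the hypoxia library that stood apart, and with that pair included 0 of the 21 passed. Besides KIF23, PLK1 and TOP2A, they held further genes of chromosome segregation and division: ESPL1, the separase (-0.71), CKAP2L (-0.65), FAM83D (-0.61), HJURP, which deposits the centromeric histone (-0.52), CCNF (-0.52) and CDC20, an activator of the anaphase-promoting complex (-0.47). The rest included SRF, a transcription factor of actin and immediate early genes (-0.52), TXNRD1, thioredoxin reductase (-0.48), the ligand EFNB2 (-0.61), the kinase MAP2K3 (-0.57) and the kinesin KIF5B (-0.42). With DMSO in place of ITE all 21 were also below 0, and 13 passed there with 6 pairs but 5 without pair 6.

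**Figure D3:**
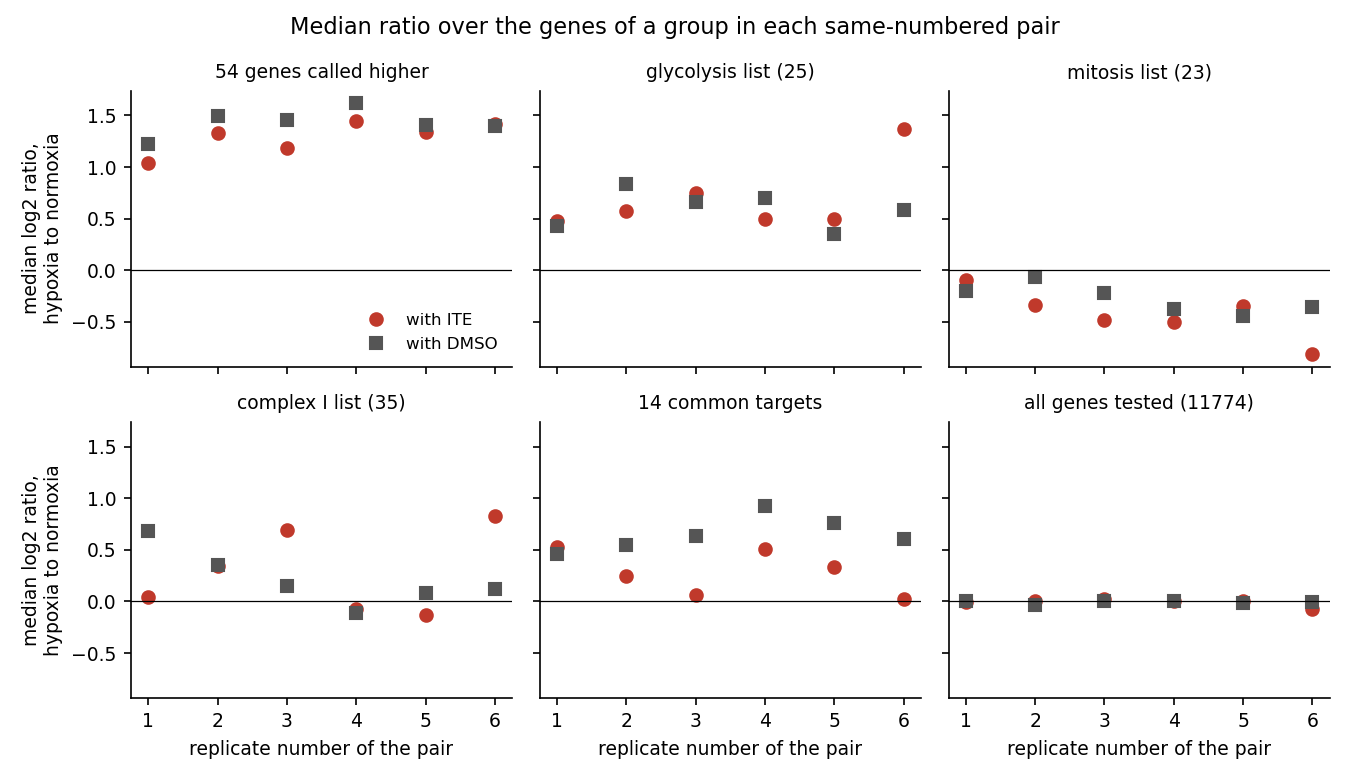
Median log2 ratio of hypoxia over normoxia across the genes of a group, in each same-numbered pair (x axis), with ITE (red circles) and with DMSO (grey squares). The 54 genes called with ITE, chosen on these ITE pairs, lie between 1.04 and 1.45 in each of them. With ITE, mitosis lies below 0 in each pair, and complex I lies above 0.6 in pairs 3 and 6 and below 0 in pairs 4 and 5.

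With the ligand present at both oxygen levels, the comparison also shows how far AHR target genes differed between them. CYP1B1, a monooxygenase and canonical AHR target, lay at 242 to 391 CPM (median 322) in normoxia + ITE and 106 to 306 CPM (median 269) in hypoxia + ITE. The groups overlapped and replicate 6 was the lowest of hypoxia. CYP1B1 was lower in 5 of 6 pairs, with a log2 fold change of -0.50 (SE 0.20, edgeR adjusted p = 0.437) and of -0.28 without pair 6 (adjusted p = 0.253). ALDH1A3, an aldehyde dehydrogenase that makes retinoic acid, had -0.54 in 5 of 6 pairs (adjusted p = 0.362) and BMF, a pro-apoptotic BH3-only gene, -0.94 in 6 of 6 (adjusted p = 0.408). ASB2 was at -0.15 (adjusted p = 0.716) and CYP27A1 at 0.23 (adjusted p = 0.606). In the study, genes nearest to AHR-only binding sites were enriched among those lower in hypoxia + ITE. Its RT-qPCR of the same genes found less induction by ITE in hypoxia for CYP1B1, ALDH1A3, BMF and ASB2, and no effect on CYP27A1. Of the 5, 0 passed by edgeR with or without pair 6 or by DESeq2, 3 of those below 0 had an unadjusted p under 0.05, and the median was -0.50. With sample quality weights CYP1B1 (-0.36, adjusted p = 0.0280) and ALDH1A3 (-0.48, adjusted p = 0.0152) were called lower, in 1 of 18 alternatives each.

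In the wider AHR pathway 0 of 12 tested genes passed by edgeR or DESeq2 (1 higher and 2 lower before adjustment by edgeR), and the median was -0.18 with 6 pairs and -0.04 without pair 6. TIPARP, a target that feeds back on AHR, lay at 111 to 129 CPM (median 124) in normoxia and 40.3 to 149 CPM (median 84.6) in hypoxia (-0.57, adjusted p = 0.388), and it was called lower in 1 of 18 alternatives, that with sample quality weights (adjusted p = 0.0182). AHR itself was at a median of 36.5 and 29.5 CPM (-0.40, adjusted p = 0.517), with replicate 6 the lowest hypoxia library at 8.20 CPM, and ARNT at 35.5 and 30.1 CPM (-0.18, adjusted p = 0.658). Without pair 6 the log2 fold changes were -0.11 for AHR and -0.06 for ARNT, both named after their values were seen. CYP1A1 and CYP1A2 did not reach the count minimum.

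The HIF target genes that the study followed by RT-qPCR were NDRG1, PFKFB4, INSIG2, ARL10 and ANKRD37, of which ANKRD37 did not reach the count minimum. INSIG2, which restrains cholesterol synthesis, lay at 18.9 to 28.5 CPM (median 20.4) in normoxia and 29.7 to 73.6 CPM (median 63.5) in hypoxia, and rose by 1.38 (SE 0.18, edgeR adjusted p = 0.00358). ARL10 was higher in 5 of 6 pairs without passing (1.38, SE 0.48, adjusted p = 0.385), and its replicate 6 stood at 16.2 CPM against a median of 4.51.

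The study chose 14 genes on these samples as targets of both factors, so their direction is not independent evidence. With ITE present, 13 of the 14 were above 0 in hypoxia, with a median of 0.31. SLC2A1 rose as given above, and MFNG, a glycosyltransferase of Notch signalling, rose by 1.07 (SE 0.19, edgeR adjusted p = 0.0282, and 0.0624 with no replicate block) from 4.10 to 8.32 CPM (median 6.55) to 8.22 to 23.4 CPM (median 12.6). INSIG1 did not pass with 6 pairs and rose without pair 6 (0.47, adjusted p = 0.0352). PAG1 (0.72), PADI1 (0.60), FAM65C (0.45), CARD10 (0.34), PAX2 (0.33), LIMCH1 (0.28), WSB1 (0.26), VLDLR (0.22), MOAP1 (0.04), NR3C1 (0.01) and ARNTL (-0.08) did not pass, and the signs of MOAP1, NR3C1 and ARNTL turned in some of the alternatives. The pair medians of the 14 ran from 0.03 in pair 6 to 0.53 in pair 1.

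The libraries with DMSO share none with those with ITE, so the responses can be set side by side. With DMSO, 197 genes were higher (1.67%) and 54 lower (0.459%) by the same test on the same 11774 genes, or 128 and 10 without pair 6. All 54 genes called with ITE were also called higher with DMSO, with a median of 1.46 against 1.29. By the fit of the difference between the responses, ITE minus DMSO, the response with ITE was the smaller for 33 of the 54 and the larger for 21. Over all genes tested this difference was below 0 in 5742 and above 0 in 6032. The 54 were called on the ITE libraries, which favours a larger response with ITE. Of the 125 called with ITE without pair 6, 110 were called with DMSO (98 with DMSO without pair 6) and all had the same sign.

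The test of the difference between the responses called 0 of 11774 genes by edgeR (0%), with 317 under an unadjusted p of 0.05, and 0 by DESeq2, with 462. NDRG1 responded by 2.94 with ITE and 3.24 with DMSO (difference -0.31, SE 0.19, unadjusted p = 0.122, adjusted p = 0.904). INSIG2 responded by 1.38 and 1.94 (difference -0.57, adjusted p = 0.904) and PFKFB4 by 3.61 and 3.39. The 14 common targets were chosen by the study on libraries that enter this difference, which favours a larger response with DMSO, so their medians of 0.31 with ITE and 0.56 with DMSO are a description only.

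By size of p, the differences led with WSB1, a ubiquitin ligase subunit (0.26 with ITE and 0.85 with DMSO), TIPARP (-0.57 and 0.17) and CTSL2, a cathepsin (-0.54 and 0.67), on the lower side, and with ARHGAP44 (1.06 and -1.14), ARHGAP27 (0.54 and -0.70) and ZBTB48 (0.81 and -0.38) on the higher side. All 6 had an adjusted p of 0.904 or more by edgeR. ARHGAP44 was at a median of 1.42 CPM in normoxia + ITE and at 0 to 1.54 CPM in hypoxia + DMSO, close to the level of few counts. CTSL2 was also low, at 1.21 to 4.26 CPM in hypoxia + ITE, where 3 counts were up to 2.21 CPM.

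**Figure D4:**
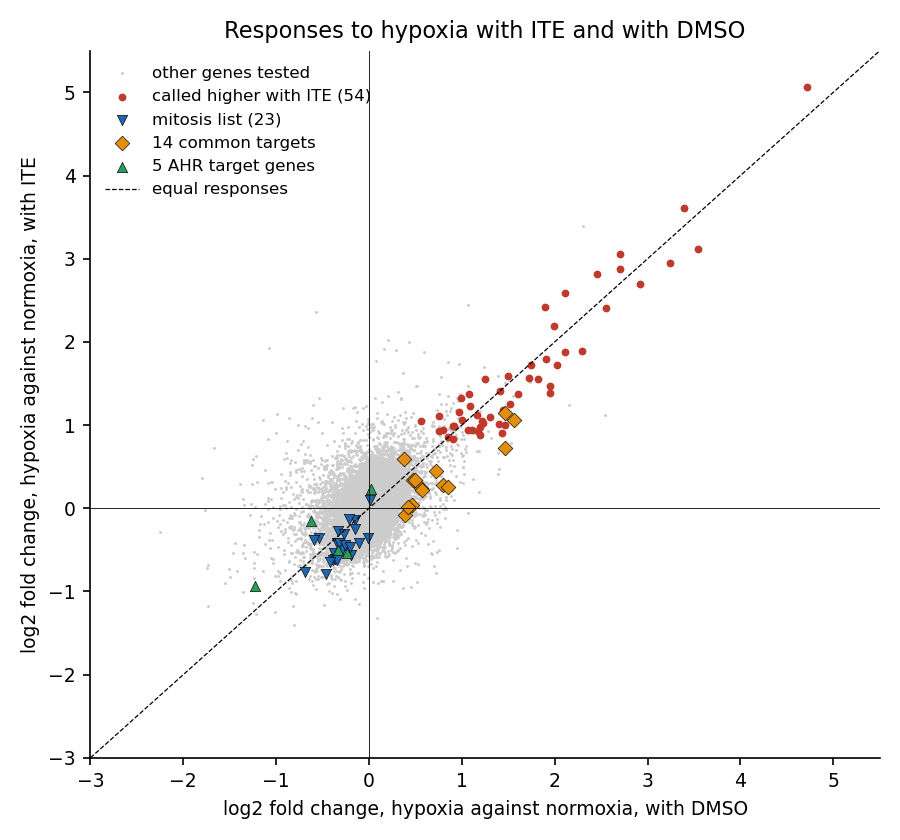
Log2 fold change of hypoxia over normoxia with DMSO (x axis) and with ITE (y axis) for 11774 genes; the dashed line marks equal responses. The 54 genes called with ITE (red) run along the line on both sides. By the separate fit of the difference, 33 of them had the smaller response with ITE. The 14 common targets (orange) were chosen by the study on libraries plotted here, which favours a place below the line.

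The remaining lists held few calls. Of 25 genes of the integrated stress response 1 rose, TRIB3, a pseudokinase target of ATF4 (0.99, adjusted p = 0.0104), with 2 without pair 6, and ATF4 had 0.38 with separate groups (adjusted p = 0.421). INSIG2 was the 1 of 25 genes of cholesterol synthesis that rose with 6 pairs, and without pair 6 INSIG1 rose as well. Of 14 genes of the unfolded protein response, 7 of acid-base handling, 36 of ribosome biogenesis, 11 of iron, 15 of the NRF2 response and 14 immediate early factors, 0 passed with 6 pairs by edgeR. Summed over the 6 lists, which share 3 genes, 7 members were higher and 8 lower before adjustment, and DESeq2 called 2 higher and 1 lower. Without pair 6, JUNB (0.73) and DUSP1 (0.67) rose and SRF and, in the NRF2 list, TXNRD1 fell. CA9 did not reach the count minimum.

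Subunits of respiratory complex I, which passes electrons from NADH to ubiquinone, differed between pairs. Of 35 tested, 32 were above 0 with a median of 0.23, and 0 passed by edgeR or DESeq2 (5 higher and 1 lower before adjustment by edgeR). The pair medians were 0.69 in pair 3 and 0.83 in pair 6, and 0.04, 0.35, -0.07 and -0.13 in pairs 1, 2, 4 and 5. The summed level of the list in hypoxia + ITE ran from 3148 to 7416 CPM and normoxia + ITE from 3090 to 3398 CPM. Hypoxia + ITE replicates 3 and 6 were also those with the largest share of variance accounted for by GC content and length, and the part of either in this median was not tested.

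**Figure D5:**
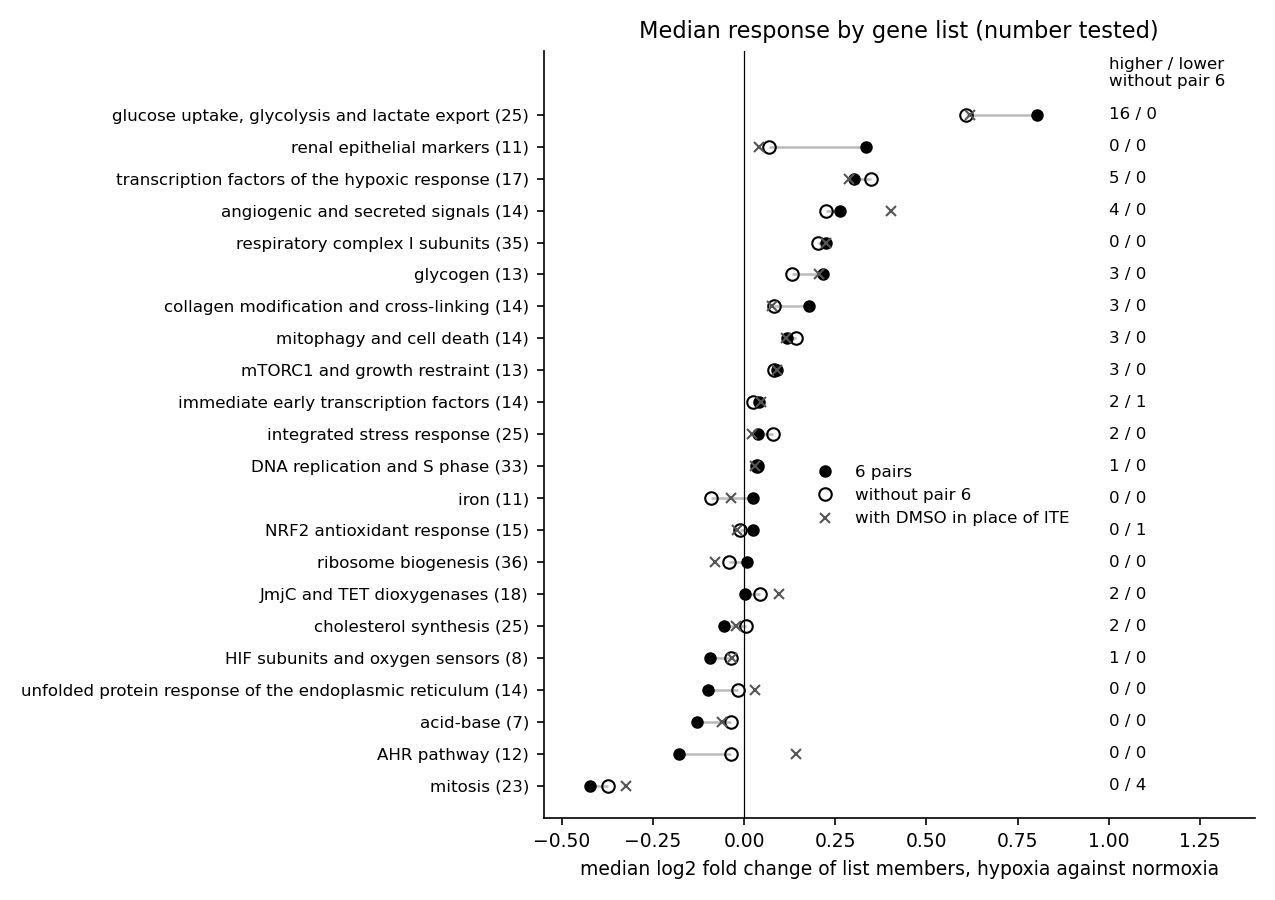
Median log2 fold change of each gene list with at least 5 tested members (number tested in brackets), leaving out the lists of genes that the study chose, with 6 pairs (filled), without pair 6 (open) and with DMSO in place of ITE (crosses); figures at the right count members called higher and lower without pair 6. Of the lists drawn, glycolysis lies highest (0.80 and 0.61, 16 higher) and mitosis lowest (-0.42 and -0.37, 4 lower).

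Of 97 of the genes named here, 19 overlap another counted gene in the annotation of GRCh37, 13 of them on the other strand. Among the 19 are PFKFB4, MIR210HG, ANKZF1, ENO2, PGK1, CYP1B1, PLK1, FAM162A, BNIP3L, TPI1, SLC16A3, LOX, TXNRD1 and ARL10. The library kit keeps strand, and the strand setting of the counting is not given in the sources used here, so reads of the overlapping parts may be split or lost. PFKFB4 lies on chromosome 3 from 48555117 to 48599448, DDIT4 on chromosome 10 from 74033678 to 74035794, PPFIA4 on chromosome 1 from 202995619 to 203047868, RIMKLA on chromosome 1 from 42846463 to 42889903 and MIR210HG on chromosome 11 from 565657 to 568457.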

How the data were processed

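PolyA+ RNA of 24 libraries was measured by sequencing, and the 12 with ITE form the comparison. The authors trimmed adaptors (Trim Galore 0.3.3), aligned to GRCh37 with HISAT2, removed fragments without a unique place (Picard 2.0.1) and counted reads per gene with HTSeq. The deposited values are raw counts per gene symbol and library, not normalised.

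Groups and replicate numbers came from the labels. Genes with at least 10 counts in at least 6 of the 12 libraries (11774 of 23106 symbols) were normalised by TMM and tested with edgeR's quasi-likelihood test (R 4.3.3, edgeR 4.0.16), 2-sided, with the replicate number as a block and Benjamini-Hochberg adjustment over all 11774. The same test was run on the DMSO libraries and, over all 24, on the difference of the responses. Level scaling used all 24 libraries, and log2 CPM a prior count of 2. Pair medians and pair counts over groups of genes instead used log2 of CPM plus a small constant. DESeq2 1.42.0, limma 3.58.1 and other settings were alternatives. The test was run on simulated counts with a variability shared by all genes and neither a pair effect nor GC bias. That run therefore does not bear on these features of the data. GC content and length were known for 90.7% of the genes tested. Depth limits precision (3 counts are up to 2.21 CPM with ITE and 3.9 CPM with DMSO), and floors cover counting error only.

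Gene names follow a rule: the 15 highest responses called in 6 of 6 pairs with a mean of at least 1 CPM, the genes the study names, the 4 smallest p-values in each list and the 3 per direction in the difference test. Other names are said to be chosen after their values were seen. The members, lists and tests were chosen with earlier results of these data known.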

Additional observations from a re-analysis of the deposited data

Results flagged for a closer look

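Within each group of 6 libraries, values were examined for a lowest or highest library far from the rest (Dixon's test at the 95% level, over 54 groups of values, where chance gives about 2.7), and 11 were found. Total counts were far above the others in normoxia + ITE replicate 5 (48357647) and hypoxia + ITE replicate 4 (87404330). Hypoxia + ITE replicate 6 had the highest median absolute deviation from its group, 0.681 on the log2 scale, and in it ADM (239 CPM), SPAG4 (26.0 CPM), ANKZF1 (194 CPM) and ARL10 (16.2 CPM) lay far above the other hypoxia libraries. In normoxia + ITE, BNIP3 was lowest in replicate 2 (50.5 CPM), ALDH1A3 (23.8 CPM) and CYP27A1 (14.1 CPM) were lowest in replicate 5, and INSIG2 was highest in replicate 3 (28.5 CPM).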

How the results depend on the processing

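With 54 higher and 0 lower genes as reported, the count of higher genes stayed within 1.5 times under RLE size factors, filterByExpr, no filter, no block and equal depth. The count of higher and lower genes was 153 and 49 with DESeq2, 188 and 68 with all 24 libraries in the model, 102 and 18 with offsets for GC content and length, 298 and 145 with sample quality weights, 152 and 37 with no block and without hypoxia + ITE replicate 6, and 21 and 0 with a fold-change minimum of 1.5. Without a filter on low counts 78 genes were higher and 1 lower. Leaving out 1 pair gave 30 to 125 higher and 0 to 21 lower genes, and the highest of both was without pair 6. Settings chosen after seeing the data gave 144 and 36 without pairs 3 and 6, and 154 and 57 with the offsets and without pair 6. The causes of these shifts were not tested. Of the 54 genes, DESeq2, sample quality weights, all 24 libraries, RLE, both filters and the fits without pair 6 that tested all 54 kept all 54; the other single-pair omissions kept 30 to 40, equal depth 42 of the 51 it tested and the fold-change minimum 21.

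With no replicate block the test called 80 higher and 4 lower genes, among them 53 of the 54. The labels do not say that a number marks a shared culture. Correlations of same-numbered libraries' deviations from their group means were 0.0988, 0.108, 0.0597, 0.117, 0.239 and 0.0171 for numbers 1 to 6, over 0.1 in 3 of 6, and for 4 of 6 normoxia libraries the hypoxia library of their own number correlated best.

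List members called higher, outside the lists the study chose, numbered 28 as reported, 45 with all 24 libraries, 56 with quality weights, 47 with no block and without hypoxia + ITE replicate 6, 10 with the fold-change minimum, 16 to 47 leaving out 1 pair, 51 without pairs 3 and 6 and 44 with offsets and without pair 6. With DMSO, 197 higher and 54 lower genes became 128 and 10 without pair 6. The difference between the responses called 0 genes in every setting run, with 174 to 527 at an unadjusted p-value under 0.05.

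Among single genes, signs turned only where the fold was near 0. The ARNT log2 fold change was 0.00682 with quality weights and 0.00442 with offsets and without pair 6. The CYP27A1 log2 fold change was -0.00636 with offsets and -0.000436 with offsets and without pair 6. The MOAP1 log2 fold change was -0.0137 with offsets, -0.0121 at equal depth and between -0.0588 and 0.209 leaving out 1 pair. The NR3C1 log2 fold change was between -0.0611 and 0.0898 leaving out 1 pair. The ARNTL log2 fold change was 0.167 with quality weights, 0.17 without replicates 3 and 6 and between -0.166 and 0.0472 leaving out 1 pair.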
